A study of Trametes cinnabarina with 16 samples.

Results

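In the wood-decay fungus Pycnoporus cinnabarinus (a white-rot basidiomycete, Trametes cinnabarina in the records), strain PB94, 41 of 27990 assembled genes were higher on cellobiose, poplar and switchgrass alike than on maltose, glucose or no energy source. They were chosen by their levels in TPM, a length-corrected relative abundance within a library, in 15 of the 16 libraries. A gene was kept where its group medians in cellobiose, poplar and switchgrass were each at least 10 TPM and each at least 2 times its highest value in 6 low libraries, which were the first and second maltose libraries, the glucose library and the 3 control libraries. Genes whose lowest plant value was at least 4 times their highest cellobiose value were to be dropped, and 0 were. The levels that chose the genes are therefore a description, and no test is given for them.

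Cellulose is a chain of glucose units, and the enzymes that wood-decay fungi secrete cut it mainly into the disaccharide cellobiose, which beta-glucosidases split to glucose or cellobiose dehydrogenase oxidises. In several filamentous fungi cellobiose or sugars made from it are known to induce genes for cellulose breakdown, while glucose is known to repress such genes. Maltose is a disaccharide of glucose too, from starch, with an alpha in place of a beta linkage. The identifiers of the assembly carry no names and 0 of them matched the 10441 genes of the reference list for strain BRFM137, so no role is given here to any of the 41 genes.

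The groups were cellobiose, poplar, switchgrass and maltose cultures with 3 libraries each, 1 glucose library and 3 libraries of cultures without an energy substrate (control), all of whole fungus of strain PB94 in semi-minimal medium. The labels' protocols give poly-A preparation for the 10 control and soluble-sugar libraries and removal of ribosomal RNA for the 6 plant libraries, so a plant substrate and its preparation cannot be told apart. Cellobiose shared its preparation with the 6 low libraries. Whether replicates came from separate cultures is not stated, and the spread behind each p-value may therefore be technical. TPM keeps no read depth, which is unknown for every library, and in bulk samples less RNA per cell and fewer cells of a kind cannot be told apart. Some libraries were dominated by a few transcripts: the 10 most abundant genes held 50.8% of TPM in the third switchgrass library, 75.3% in poplar library 2 and 83.7% in maltose library 3, against 6.57% to 35.1% in the other 13.

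The sample names come from one of a pair of deposited tables that hold identical values in 16 of 16 columns and the same column name in 0 of them. With the names used here, the other table's columns follow the order of the records (16 of 16). Under the other names the libraries in which the 41 genes were high would be those of cellobiose, poplar and control, and those in which they were low would be switchgrass, maltose and glucose. Every group name below depends on this choice, which the tables do not settle.

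Taken alone, the condition on level and fold was met by 381 genes in cellobiose, 622 in poplar and 1007 in switchgrass, and 41 met all 3. Over the 41 genes the group medians ran from 10.98 to 309.7 TPM in cellobiose (median 20.1), from 10.59 to 966 in poplar (median 38.9) and from 10.87 to 2755 in switchgrass (median 76.3). The highest of the 6 low libraries was between 0.91 and 88.7 TPM (median 4.59), and it was a control library for 28 genes, a maltose library for 11 and the glucose library for 2. The median ratio of the group median to that highest value was 4.16 in cellobiose, 7.08 in poplar and 10.7 in switchgrass. Both medians over the 41 genes were thus lowest for cellobiose on the deposited scale, although single genes differed in their order.

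**Figure D1:**
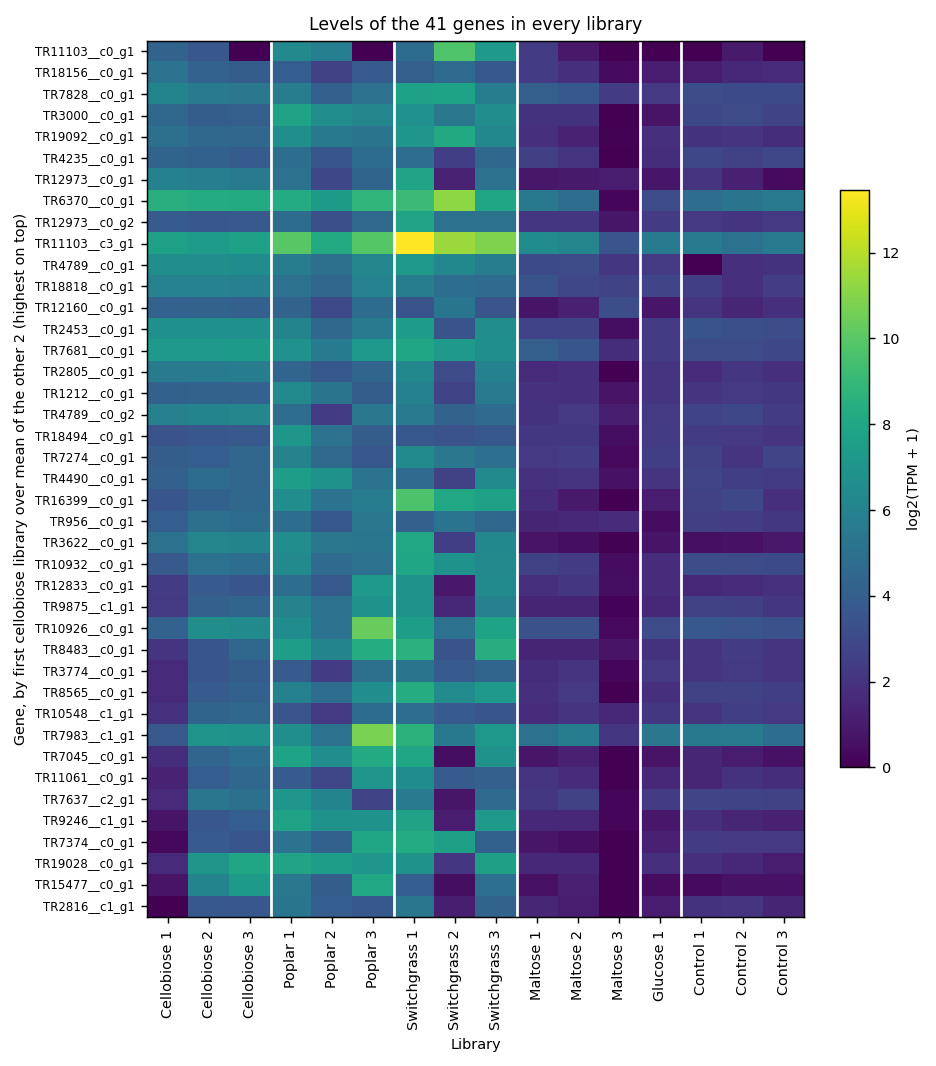
Levels of the 41 genes (rows) in the 16 libraries (columns, by culture), as log2(TPM + 1). Rows run by the level in the first cellobiose library over the mean of the second and the third; the lower rows are dark in the first cellobiose library, several of them also in the second switchgrass library, and 30 rows are under 1 TPM in the third maltose library.

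Of the thresholds, the level was met most narrowly by TR10548__c1_g1 (lowest group median 10.59 TPM), TR12160__c0_g1 (10.87) and TR8483__c0_g1 (10.98), and missed by TR3541__c0_g2 (9.77), TR12212__c0_g2 (8.9) and TR5873__c0_g1 (8.56). The ratio of 2 was met most narrowly by TR7828__c0_g1 (2.00), TR7983__c1_g1 (2.11) and TR3000__c0_g1 (2.18), and missed by TR15370__c0_g1 (1.99), TR16631__c0_g1 (1.97) and TR18595__c1_g1 (1.96). The genes thus shade into their neighbours at both limits. For the limit of 4, the highest ratio of the lowest plant value to the highest cellobiose value was 1.83, in TR3000__c0_g1, followed by 1.60 in TR8565__c0_g1 and 1.51 in TR16399__c0_g1.

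Together the 41 genes held 0.197% ± 0.0365 of TPM in cellobiose, 0.452% ± 0.266 in poplar and 1.02% ± 0.669 in switchgrass (SD, n = 3 each), against 0.0210% ± 0.0140 in maltose (n = 3), 0.0189% in the glucose library and 0.0267% ± 0.000916 in control (n = 3). Single libraries held 0.156%, 0.207% and 0.227% in cellobiose, 0.442%, 0.190% and 0.722% in poplar and 1.78%, 0.779% and 0.506% in switchgrass. The 3 cellobiose libraries were close to each other, while the plant libraries spread more than 3-fold within a group. One gene made up much of the switchgrass sum: TR11103__c3_g1 held 63.3%, 35.4% and 36.4% of it, and without that gene the 3 libraries held 0.652%, 0.504% and 0.322% of TPM.

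**Figure D2:**
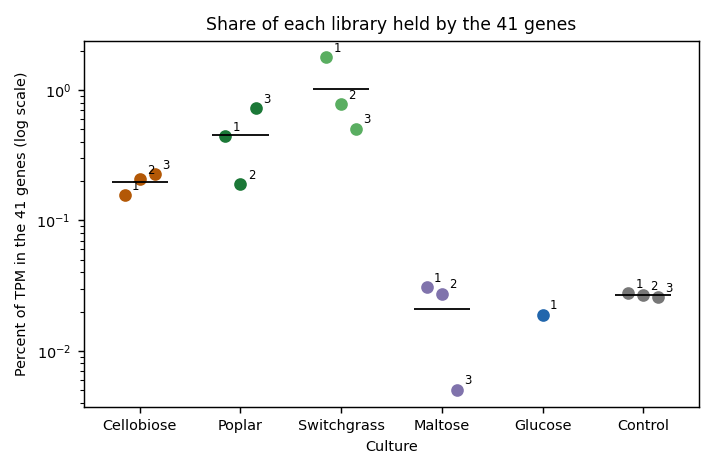
Percent of TPM held by the 41 genes in each library (points, log scale, numbered by replicate) by culture, with the group mean as a bar where there are 3 libraries. The cellobiose, poplar and switchgrass libraries lie between 0.156% and 1.78%, all above the maltose, glucose and control libraries, which reach 0.0306%; genes were chosen for this difference.

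By the mean of the 3 group medians the leading genes were TR11103__c3_g1, TR6370__c0_g1, TR8483__c0_g1, TR19028__c0_g1, TR7681__c0_g1 and TR7983__c1_g1. TR11103__c3_g1 had 205, 171 and 208 TPM in cellobiose, 981, 304 and 966 in poplar and 11255, 2755 and 1841 in switchgrass, against 88.7, 69.5 and 10.8 in maltose, 43.3 in glucose and 47.2, 31.7 and 45.8 in control. Each switchgrass library was above each poplar library, and each poplar library above each cellobiose library. TR6370__c0_g1 had 356, 310 and 299 TPM in cellobiose, 314, 159 and 462 in poplar and 586, 2320 and 248 in switchgrass, against 43.1, 27.4 and 0.12 in maltose, 7.87 in glucose and 27.6, 35.7 and 47.6 in control. Its cellobiose and poplar libraries overlapped, and all 9 raised libraries stood above every low one.

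TR7681__c0_g1 was the steadiest of the 41 over the 9 raised libraries, with a coefficient of variation of 37.2%. It had 155, 152 and 161 TPM in cellobiose, 111, 48.1 and 146 in poplar and 241, 154 and 101 in switchgrass, against 15.7, 11.1 and 2.38 in maltose, 4.20 in glucose and 7.30, 7.75 and 6.56 in control. The next were TR956__c0_g1 (38.1%) and TR18818__c0_g1 (39.8%), against a median of 97.7% and a highest value of 207% over the 41. TR956__c0_g1 had 15.2, 30.5 and 26.4 TPM in cellobiose, 28.4, 11.9 and 40.98 in poplar and 16.6, 34.0 and 21.7 in switchgrass, against at most 4.76 TPM in the 6 low libraries. The 3 raised groups of TR956__c0_g1 overlapped with each other, whereas the cellobiose libraries of TR7681__c0_g1 lay above its poplar libraries.

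In 20 of the 41 genes all 9 raised libraries were above all 6 low ones (0.471% of the 23981 tested genes were), a direction set by the choice of genes. After median-of-ratios scaling, which divides each library by a factor taken from 9213 genes present in all, it was 24 (2.86% of tested genes). In 10 genes all 9 raised libraries were at least 2 times the highest low value on the deposited scale. The exceptions were unevenly spread over the libraries. The first cellobiose library was at or under the highest low value in 13 genes and the second switchgrass library in 12, against 3 for the second poplar library, 2 for the third poplar library, 1 for the third cellobiose library and 0 for the other 4. The 13 genes were 31.7% of the 41, against 11.8% of the 340 other genes that met the condition in cellobiose. The 12 were 29.3%, against 14.2% of the 966 other genes that met it in switchgrass. For these genes the name of the group describes the remaining libraries of the group only.

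TR19028__c0_g1 was such a gene in cellobiose, where it had 2.04, 136 and 242 TPM. It had 230, 179 and 133 TPM in poplar and 120, 3.32 and 196 in switchgrass, against at most 2.59 in the 6 low libraries. The first cellobiose library lay within the low libraries and the second switchgrass library barely above them, while the other 7 were at least 46.2 times the highest low value. TR15477__c0_g1 had 0.65, 66.8 and 159 TPM in cellobiose, 41.6, 14.4 and 271 in poplar and 15.3, 0.43 and 29.2 in switchgrass, against at most 1.37 TPM in the low libraries. TR7045__c0_g1 had 2.37, 20.1 and 28.1 TPM in cellobiose, 222, 95.3 and 294 in poplar and 242, 0.39 and 113 in switchgrass, against at most 1.76 TPM. In the second switchgrass library both were below their highest low library.

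Across the 41 genes, the first cellobiose library was at 50% or less of the mean of the other 2 in 18 genes (43.9%). Among the same 340 genes the share was 15.3%, and among 5890 other genes with medians of at least 10 TPM in cellobiose and switchgrass it was 5.40%. The second switchgrass library was at 50% or less of the mean of the other 2 in 23 genes (56.1%), against 34.7% of the same 966 genes and 7.62% of the 5890. Of the 13 genes at or under their highest low value in the first cellobiose library, 6 (46.2%) were also so in the second switchgrass library. They were 50% of the 12 there: TR15477__c0_g1, TR2816__c1_g1, TR7637__c2_g1, TR7983__c1_g1, TR9246__c1_g1 and TR9875__c1_g1. These 6 were listed after their values were seen. Over the 41 genes the 2 ratios had a Spearman correlation of 0.54, against 0.15 over the 5890 genes, a description across genes of the same libraries. The 5890 genes were not chosen to stand above the low libraries, and few of them had low ratios, so the 2 correlations are not matched. No correlation was computed over the 340 or the 966 genes.

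**Figure D3:**
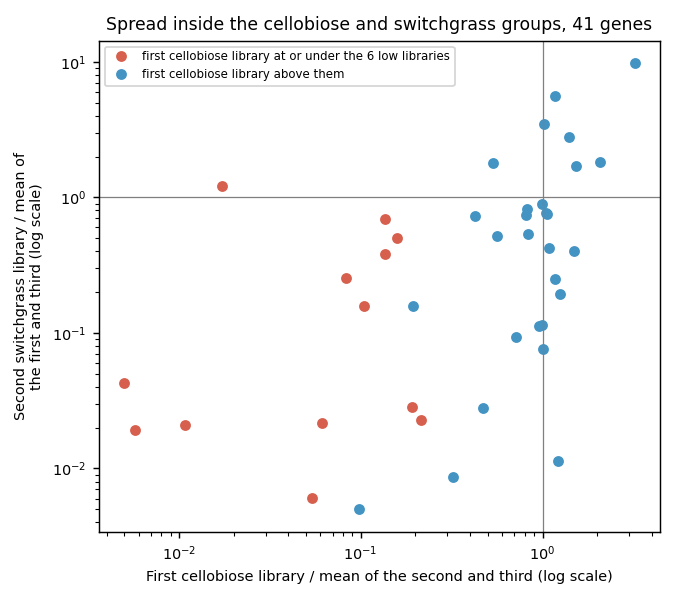
Level in the first cellobiose library over the mean of the second and the third (x axis) and in the second switchgrass library over the mean of the first and the third (y axis), both on log scales, for the 41 genes. Ratios under 0.005 are drawn at 0.005 (1 gene on each axis). The 13 genes at or under their highest low value in the first cellobiose library (red) had a median y value of 0.0426. The other 28 (blue) had 0.527.

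The 13 genes low in the first cellobiose library had a median of 2.06, 15.1 and 21.8 TPM in the cellobiose libraries, and the other 28 had 21.1, 28.2 and 27.3. In poplar the 13 had medians of 58.8, 27.3 and 114 TPM and the 28 had 73.1, 27.8 and 36.8. The 2 sets thus differed in the first cellobiose library by which they were divided, and stood in opposite order in the first and the third poplar library. TR7983__c1_g1 had 12.8, 125.5 and 120.2 TPM in cellobiose, 104, 31.6 and 1704 in poplar and 399, 43.1 and 144 in switchgrass, against at most 49.2 in the low libraries. TR10926__c0_g1, outside the 13, was likewise far above its other values in the third poplar library: it had 18.0, 101 and 83.3 TPM in cellobiose, 92.0, 33.3 and 1300 in poplar and 187, 32.5 and 221 in switchgrass, against at most 11.96 in the low libraries.

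Cellobiose and the plant substrates were set side by side as a description, since they differ in preparation and the rule bounds their ratio. The group median was highest in switchgrass for 22 genes, in poplar for 10 and in cellobiose for 9, and it was lowest in cellobiose for 23, in poplar for 11 and in switchgrass for 7. The count of 9 was 5 with group means, 4 and 5 without the second and the third switchgrass library, and 0 after median-of-ratios scaling. The scaling factors were 1.63 to 1.82 in cellobiose, 0.230 to 1.08 in the plant libraries and 1.44 to 1.83 in the 6 low libraries. The order of cellobiose and plant levels thus depended on the scale. After scaling all 41 genes kept group medians above every low library in all 3 groups. With these factors the rule's ratio of 2 left no other outcome, so nothing is read from it. The rule itself, applied after scaling, found 56 genes, of which 26 were among the 41. Its level of 10 then applied to scaled values, so it was not the same limit as 10 TPM. On scaled values the median over the 41 genes was 12.3 in cellobiose, in place of 20.1 TPM. It was 108 in poplar and 114 in switchgrass, in place of 38.9 and 76.3 TPM.

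On the deposited scale the genes highest on cellobiose relative to plants were TR4789__c0_g2, TR18818__c0_g1 and TR12973__c0_g1, with cellobiose medians 2.45, 1.98 and 1.70 times the higher plant median. TR4789__c0_g2 had 57.8, 66.0 and 73.0 TPM in cellobiose, 26.9, 4.28 and 41.5 in poplar and 46.1, 18.8 and 24.7 in switchgrass, against at most 6.59 in the low libraries. Its cellobiose libraries lay above all 6 plant libraries. TR12973__c0_g1 had 59.1, 53.2 and 44.2 TPM in cellobiose, 32.5, 6.44 and 19.5 in poplar and 231, 1.48 and 31.2 in switchgrass, against at most 3.07 in the low libraries, so that 1 switchgrass library exceeded every cellobiose library and another lay below the first control library.

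At the other end were TR8483__c0_g1, TR7374__c0_g1 and TR16399__c0_g1, whose higher plant median was 30.0, 18.2 and 15.6 times their cellobiose median. TR8483__c0_g1 had 3.24, 10.98 and 22.7 TPM in cellobiose, 186, 64.6 and 317 in poplar and 392, 10.3 and 330 in switchgrass, against at most 4.05 in the low libraries. TR7374__c0_g1 had 0.21, 13.4 and 11.02 TPM in cellobiose, 34.2, 17.3 and 236 in poplar and 311, 200 and 16.9 in switchgrass, against at most 4.25. In both, the second and the third cellobiose libraries were only a few times above the highest low library, and the first was below it.

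Switchgrass and poplar share a preparation, and the rule set no condition on the difference between them, so it was tested. The rule did use the levels of both, however, and left out genes raised on a single plant substrate. The counts and medians below are thus partly shaped by the choice of genes, and no likeness of the substrates is read from them. The test was limma on log2(TPM + 1) over the 23981 genes that reached 1 TPM in 3 or more libraries, a filter that all 41 genes pass because of how they were chosen. No member was called at an adjusted p under 0.05 (0 of 41, against 0.025% of all tested genes). A fit that left out maltose library 3 called 0 of 41 too, against 0.108% of tested genes. Before adjustment, 8 of the 41 had a p under 0.05 by limma, against 4.38% of tested genes, and 10 in the fit that left out that library, against 8.29%. The number before adjustment was 3 with a pseudocount of 0.1 TPM (against 3.98%), 3 in a fit to these 2 groups alone (against 2.99%) and 5 without the second poplar library (against 4.51%). It was 8 without the filter (against 1360 of 27550 genes) and 8 with replicate number as a block (against 981 of 23981). After median-of-ratios scaling it was 6 (against 2265). Without poplar library 1 or 3 it was 7 and 8 (against 730 and 1858). Without switchgrass library 1, 2 or 3 it was 6, 6 and 10 (against 1004, 1169 and 1734). The median log2 difference of the 41 was 0.26, against 0.27 over all tested genes, and 22 of the 41 were positive. After median-of-ratios scaling the medians were -0.31 and -0.030, so the sign of both medians depended on the scale.

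In 4 genes every switchgrass library was above every poplar library (9.76% of the 41, against 2.83% of tested genes): TR11103__c3_g1, TR12973__c0_g2, TR16399__c0_g1 and TR7828__c0_g1. In 1, TR18494__c0_g1, every poplar library was above every switchgrass library (2.44%, against 1.89%). After scaling these counts were 3 (against 3.7% of tested genes) and 3 (against 4.85%), and TR12973__c0_g2 and TR18494__c0_g1 were no longer among them. TR16399__c0_g1 had the smallest p of the 41. It had 834, 271 and 204 TPM in switchgrass and 95.7, 33.7 and 51.0 in poplar, with 11.1, 17.4 and 22.2 in cellobiose and at most 6.53 in the low libraries. Its log2 difference was 2.69 ± 0.75 (SE, limma, adjusted p = 0.446, and 0.0835 to 1 over the alternatives).

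The other large positive differences were 3.19 ± 1.43 for TR11103__c0_g1 and 2.54 ± 0.97 for TR11103__c3_g1 (limma, adjusted p = 1 and 0.939). TR11103__c0_g1 was uneven within every group, with 25.6, 853 and 149 TPM in switchgrass, 79.6, 55.0 and 0 in poplar and 18.5, 11.50 and 0 in cellobiose. The largest negative differences were -2.66 ± 1.35 for TR15477__c0_g1, -2.45 ± 1.30 for TR7045__c0_g1 and -1.94 ± 0.86 for TR4490__c0_g1 (limma, adjusted p = 1 for each). TR4490__c0_g1 had 24.6, 5.13 and 85.9 TPM in switchgrass and 180, 120 and 34.3 in poplar, with 16.6, 25.9 and 20.9 in cellobiose and at most 6.11 in the low libraries. In all 3 of these genes the second switchgrass library was the lowest of the 6 plant libraries. Without it their log2 differences were -1.34, -0.15 and -0.96.

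**Figure D4:**
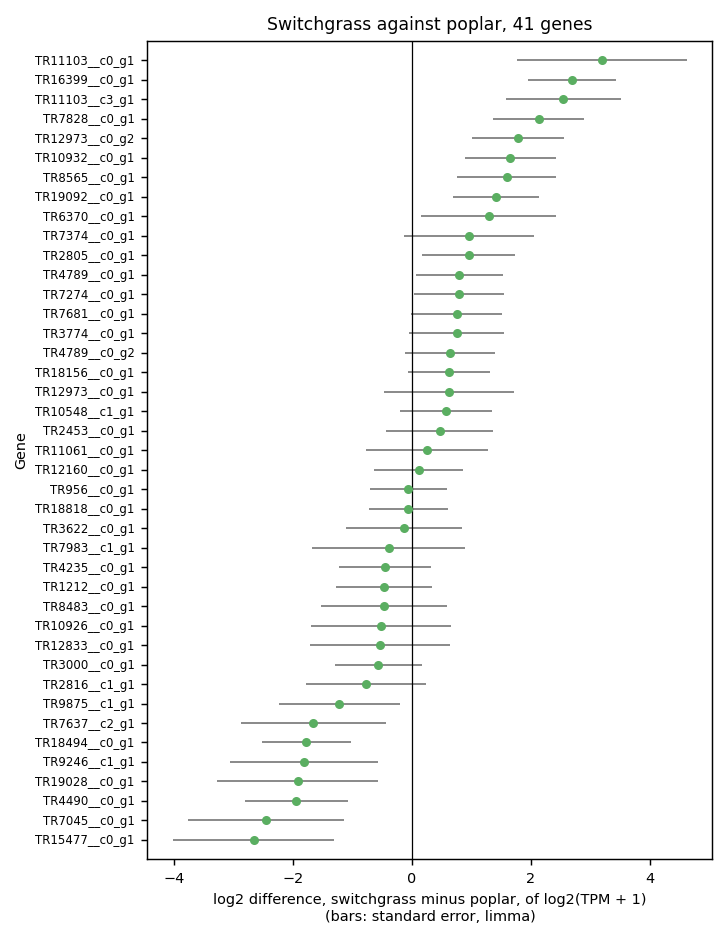
Difference of switchgrass from poplar in log2(TPM + 1) for each of the 41 genes (points, limma) with its standard error (bars). The differences run from -2.66 to 3.19, with 22 above 0, and none had an adjusted p under 0.05.

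The low cultures were also compared among themselves. The rule took the highest value over maltose libraries 1 and 2, the glucose library and the control libraries, so these values helped to choose the genes and the counts are a description from which nothing is read. In maltose against control 0 of the 41 genes were called by limma (0.00417% of all tested genes were), and 2 had a p under 0.05 before adjustment (6.34% of tested genes did). In a fit that left out maltose library 3, 0 of the 41 were called, against 3.95% of tested genes, and 1 had a p under 0.05 before adjustment, against 7.23%. The median log2 difference was -0.72, against -0.61 for all tested genes, and without that library the 2 values were -0.16 and -0.083. The first and second maltose libraries were both below all 3 control libraries in 15 genes (36.6%, against 22.9% of tested genes) and both above them in 6 (14.6%, against 13.4%). Those 6 were TR11103__c3_g1, TR18156__c0_g1, TR18818__c0_g1, TR4789__c0_g1, TR7681__c0_g1 and TR7828__c0_g1.

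Glucose had 1 library, whose spread the fit could only assume from the other groups, so its comparison with control has no replicate check and its counts do not bear on the 41 genes. In glucose against control 0 of the 41 genes were called by limma (0% of all tested genes were), and 2 had a p under 0.05 before adjustment (1.92% of tested genes did). In a fit that left out maltose library 3, 0 were called, against 0.0417% of tested genes, and 3 had a p under 0.05 before adjustment, against 3.62%. The glucose library was below all 3 control libraries in 21 of the 41 genes (51.2%, against 21.5% of tested genes) and above them in 4 (9.76%, against 37.6%). The difference was largest in level for TR6370__c0_g1, with 7.87 TPM in glucose against 27.6, 35.7 and 47.6 in control. The median log2 difference of the 41 was -0.36, against 0.069 for all tested genes.

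The third maltose library, the only one the rule left out, held 30 of the 41 genes at under 1 TPM (73.2%), of which 12 were listed at 0. Of the 24233 genes whose control median lay in the range of the 41, which starts at 0 and so takes in genes hardly detected in control, 77.9% were under 1 TPM there, a share that is not matched on level. The highest values of the 41 in that library were 10.8 TPM for TR11103__c3_g1, 7.97 for TR12160__c0_g1 and 5.79 for TR18818__c0_g1. Of these TR12160__c0_g1 exceeded its highest low library (3.04 TPM), the only 1 of the 41 to do so. With that library added to those to be exceeded, the rule found 40 genes.

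The rule summed isoforms, so their shares within a gene were open. Of the 41 genes 12 had 2 or more isoforms (29.3%, against 25.1% of tested genes). In 6 of the 12 the isoform with the highest mean differed between cellobiose and at least 1 plant substrate. Among the 1308 genes with several isoforms and medians of at least 10 TPM in the 3 groups, that share was 29.8%. In none of the 6 did the leading isoform hold at least 60% in each of the 3 groups. TR8483__c0_g1 was among the 6 although its isoform shares were nearly equal and changed by at most 0.2 percentage points between cellobiose and plants. TR10548__c1_g1, also among them, had 8 isoforms, of which the leading one in cellobiose held 19.8%. Applied to single transcripts, the rule was met by 37 transcripts of 35 of the 41 genes. The other 6 genes, TR10548__c1_g1, TR11061__c0_g1, TR11103__c3_g1, TR12833__c0_g1, TR8483__c0_g1 and TR8565__c0_g1, met it through the sum of their isoforms alone.

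The largest shift was in TR11103__c3_g1, which had 7 isoforms, 1 of them listed at 0 throughout. Isoform 7 held 75.2%, 80.5% and 80.3% of the gene in cellobiose, 3.26%, 3.20% and 1.32% in poplar and 3.24%, 8.78% and 21.0% in switchgrass, against 76.5% to 81.6% in maltose, 81.5% in glucose and 57.7% to 66.1% in control. Isoforms 1 to 4, grouped after their values were seen, held 9.80% to 15.1% in cellobiose, 95.8% to 97.8% in poplar and 74.2% to 95.4% in switchgrass, against 8.48% to 31.5% in the other libraries. The 2 sets of isoforms thus traded places between the poly-A and the rRNA-depleted libraries.

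In level, isoform 7 of TR11103__c3_g1 had 154, 138 and 167 TPM in cellobiose, against 68.5, 53.1 and 8.84 in maltose, 35.3 in glucose and 31.2, 18.3 and 29.4 in control. In poplar it had 32.0, 9.74 and 12.8 TPM, which overlapped with control, and in switchgrass 365, 242 and 387. Isoforms 1 to 4 together had 30.8, 16.75 and 22.95 TPM in cellobiose, 940, 291 and 944 in poplar and 10738, 2455 and 1365 in switchgrass, against 1.61 to 12.95 in the 7 remaining libraries. On cellobiose and on switchgrass both sets were above every control library, and on poplar isoforms 1 to 4 alone were. Substrate and preparation cannot be told apart in this shift between cellobiose and plants.

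**Figure D5:**
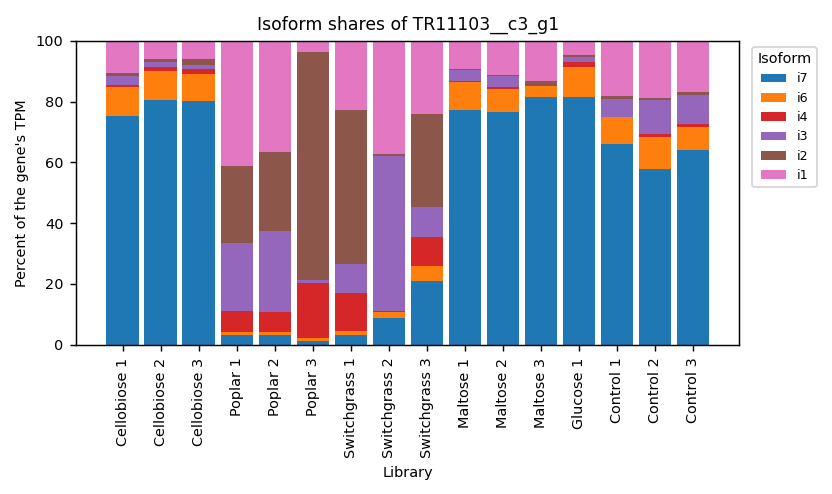
Share of each isoform in the TPM of TR11103__c3_g1 (stacked bars, percent) in each library, by culture. Isoform 7 (lowest segment) holds 57.7% to 81.6% in the 10 cellobiose, maltose, glucose and control libraries and 1.32% to 21.0% in the 6 plant libraries.

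TR8565__c0_g1 changed next most, by 29.1 percentage points in the share of isoform 4, which held 53.8% of the mean in cellobiose and 24.7% in plants. Its isoform 1 had 14.5, 5.74 and 28.2 TPM in poplar and 82.45, 13.3 and 38.6 in switchgrass, and was listed at 0 in the 10 poly-A libraries but for 0.03 TPM in the third control library. Its isoform 3 was listed at 0 in the 6 plant libraries and had 0, 3.83 and 3.09 TPM in cellobiose. In TR10926__c0_g1 isoform 2 held 66.0% of the group mean in cellobiose, 45.9% in poplar and 46.8% in switchgrass. The split between isoforms is the estimate of the authors' software, and isoforms share reads.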

How the data were processed

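RNA of whole fungal cultures was sequenced in 16 libraries. Per the submitters' processing notes the authors used RSEM. The RSEM version, any filters, and the aligner and assembler are not named in the sources read for this report. The deposited values are TPM per transcript, for 45286 transcripts. Each column summed to 1000000 within 0.87, also in the table named for counts. Isoforms were summed to 27990 genes. The genes and comparisons were chosen with earlier results of these data known.

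Differences were tested with limma 3.58.1 in R 4.3.3 (trend in the variance, values log2(TPM + 1)), with a mean for each of the 6 groups fitted to the 16 libraries, two-sided, and p-values adjusted by Benjamini-Hochberg over 23981 genes, after a check on simulated data. The scale understates changes of low genes. The lone glucose library was assumed to vary like the other groups. Named genes were the 6 highest, the 3 at each end of the cellobiose to plant ratio and of switchgrass against poplar, the 3 steadiest, the 3 with the largest isoform shifts, the 3 highest in the third maltose library and those nearest the thresholds. Others were named after their values were seen. Alternatives varied the pseudocount, filter, scaling, fitted groups, replicate block, column names, left-out library and limits of the rule.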

Additional observations from a re-analysis of the deposited data

How the results depend on the processing

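The rule found 63 genes with medians of at least 5 TPM, 18 with 20 TPM, 17 with a ratio of 4, 5 with each group's lowest library in place of its median, and 33 to 62 with 1 library left out (62 without the second poplar library). Under the other table's names it found 5 genes, of which 0 were among the 41. After median-of-ratios scaling, with the level applied to scaled values, it found 56, of which 26 were among the 41. With the first cellobiose and second switchgrass libraries left out, chosen after seeing the data, it found 47, of which 38 were among the 41. The count of genes highest in cellobiose was 9, against 0 with scaling, 5 with group means and 4 to 12 with 1 library left out. The count of genes whose leading isoform differed was 6, against 0 at a share of 60% and 5 to 6 with 1 library left out.

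Over all genes, switchgrass against poplar gave 6 calls, 0 in a fit to these groups, 110 with scaling, 271 with scaling and without the third maltose library (chosen after seeing the data), 340 under the other names and 0 to 28 with 1 library left out. Those were 11, 14 and 28 without switchgrass library 1, 2 and 3, 2, 0 and 17 without poplar library 1, 2 and 3, and 26 without the third maltose library. Maltose against control gave 1 call, 0 without the filter, 0 in a fit to these groups, 0 with the replicate block, 10 with scaling, 1003 with scaling and without the third maltose library, 9206 under the other names and 0 to 948 with 1 library left out. Glucose against control gave 0, 16 without the filter, 22 with scaling and without the third maltose library, 5394 under the other names and 0 to 10 with 1 library left out. The cause of these changes was not tested.

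Members called stayed at 0 in switchgrass against poplar and in maltose against control in every alternative but the other table's names, where 14 and 37 were called lower, and so it was in glucose against control, with 37. In the first 2 of these comparisons those names set against each other libraries by which the genes were chosen. Their median log2 differences were then -2.08 and -3.20. With 1 library left out the medians ran from -0.34 to 0.75 and from -0.89 to -0.16, and scaling moved the second to -0.014. Under the other names TR11103__c0_g1, TR16399__c0_g1 and TR11103__c3_g1 had log2 differences of -2.32, -1.65 and -2.21. In the other 75 of 78 settings the 6 genes named for switchgrass against poplar kept their sign without a call. The 6 were picked as the largest differences of the main fit, and the settings reuse its libraries. Their kept signs are thus a description and no check of stability. The replicate block gave 4 calls in switchgrass against poplar in place of 6 and changed no call of a member. Same-numbered libraries did not deviate together (correlations of deviations from -0.190 to 0.0675), so the numbers were not taken to pair them. Leaving out the single glucose library and a fit to glucose and control alone were not run.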

Other observations

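The identifiers group assembled genes into read clusters. By the convention of such assemblies, genes of a cluster share some sequence, so reads could be split between them and their separate levels are uncertain. The 41 genes came from 38 clusters, 3 of which held 2 members each: TR4789__c0_g1 with TR4789__c0_g2, TR12973__c0_g1 with TR12973__c0_g2, and TR11103__c0_g1 with TR11103__c3_g1. A further gene of the same cluster existed for 19 of the 41 (46.3%, against 48.3% of tested genes). In cellobiose TR4789__c0_g1 had 101, 99.0 and 91.8 TPM, with 50.1, 30.3 and 70.7 in poplar and 155, 76.3 and 48.6 in switchgrass, against at most 7.50 TPM in the 6 low libraries. TR12973__c0_g2 had 14.2, 11.7 and 12.6 TPM in cellobiose, 26.2, 8.58 and 23.9 in poplar and 231, 32.9 and 32.0 in switchgrass, against at most 4.10 TPM.

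The clusters held 28 genes that were no members. Of these, 10 had medians under 1 TPM in cellobiose, poplar and switchgrass, and 5 had medians of at least 10 TPM in all 3. Among the 5, TR2816__c2_g1 had medians of 35.3, 49.4 and 53.1 TPM in cellobiose, poplar and switchgrass, with a highest low value of 18.2, and TR2805__c1_g1 had 11.9, 24.4 and 33.6, with 9.27. Both were below a ratio of 2 in cellobiose. TR956__c0_g2 met the ratio in each group but not the level in poplar, with medians of 14.1, 5.81 and 25.6 TPM and a highest low value of 2.68. These genes were named after their values were seen.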
